A study of Mus musculus with 83 samples.

Results

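Antioxidant enzyme genes are described here in 4 types of neuron from the mouse frontal cortex at 2 ages. The set is the 10 listed genes Sod1, Sod2, Cat, Gpx1, Gpx4, Prdx1, Prdx2, Prdx3, Prdx5 and Txn2, taken by symbol from a table of 48795 genes, and each matched 1 row. The tissue was from male C57BL/6 mice that were old (22 months, 12 mice) or young (2 months, 9 mice). Each library was made from a pool of 125 neurons cut by laser from 14 µm sections, after staining for Slc17a7 (pyramidal cells, PYC), Pvalb (parvalbumin interneurons, PV), Sst (somatostatin interneurons, SST) or Vip (vasoactive intestinal peptide interneurons, VIP). PYC, SST and VIP each had 12 old and 9 young libraries, and PV had 12 old and 8 young libraries, 83 in all. A pool gives no value per cell, and cut pieces of section can carry RNA of neighbouring cells.

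Respiration releases superoxide, which superoxide dismutases turn into hydrogen peroxide: SOD1 works mainly in the cytosol and SOD2 in the mitochondrial matrix. Catalase, the glutathione peroxidases and the peroxiredoxins then break peroxide down, and the thioredoxins, TXN2 in mitochondria among them, recycle the peroxiredoxins. Fast-spiking PV interneurons are known for a high energy demand and dense mitochondria.

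Library totals ran from 1.46 to 27.2 M counts (M, mega) with a median of 6.99 M, which gave the members medians of 54 (Gpx1) to 751 (Sod2) counts per library. Levels are counts divided by the library's total in M (CPM). The markers of the labelled type were higher in that type for 10 of 11 tested pyramidal genes in PYC, 9 of 9 PV genes in PV, 9 of 9 SST genes in SST and 10 of 10 VIP genes in VIP. The remaining 1 tested pyramidal gene was called lower in PYC. Markers of other cells were present throughout: summed over 15 astrocyte genes they averaged 2259.6 ± 517 CPM (SD, n = 20) in PV, 3017 ± 460.3 CPM (SD, n = 21) in PYC, 2804 ± 451 CPM (SD, n = 21) in SST and 3377 ± 468 CPM (SD, n = 21) in VIP. Mitochondrially encoded genes held 0.215% to 2.51% of counts in 6 libraries (2 PYC, 1 SST, 3 VIP, none PV), against 8.31% to 17.0% in the other 77. With 83 libraries from 12 old and 9 young mice, pools of different types must come in part from the same mice. Nothing in the labels ties a library to a mouse, so the tests treat pools as independent. The p-values measure only the spread between these pools.

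The DNA just before the start sites is shown for the 2 members that differed most clearly between the neuron types, Sod2 and Prdx5. Sequences and coordinates are RefSeq's on GRCm38.p6, from 250 bases before to 50 bases after the start, 5′ to 3′ on the gene's strand, and capitals mark GC boxes.
Sod2 promoter, chr17:13007589-13007888, plus strand: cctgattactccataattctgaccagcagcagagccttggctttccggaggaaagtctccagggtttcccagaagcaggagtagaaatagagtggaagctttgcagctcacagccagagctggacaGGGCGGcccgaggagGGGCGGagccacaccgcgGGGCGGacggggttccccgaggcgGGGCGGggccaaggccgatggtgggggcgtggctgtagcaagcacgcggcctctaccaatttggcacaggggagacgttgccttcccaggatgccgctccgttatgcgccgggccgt
Prdx5 promoter, chr19:6910057-6910356, minus strand: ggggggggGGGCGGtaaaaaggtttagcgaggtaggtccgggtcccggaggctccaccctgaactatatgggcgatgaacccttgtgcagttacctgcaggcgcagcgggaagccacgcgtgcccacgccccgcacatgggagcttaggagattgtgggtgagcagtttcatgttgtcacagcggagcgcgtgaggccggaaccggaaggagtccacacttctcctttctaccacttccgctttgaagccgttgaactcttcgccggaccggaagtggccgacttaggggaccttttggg
The Sod2 promoter held 4 GC boxes (GGGCGG on either strand) and the Prdx5 promoter 1. All 10 members matched the promoter table, with 13 promoters among its 32851. Each member had a GC box in at least 1 promoter, although the first promoter listed for Gpx4 had none. Counted per promoter and not per gene, 35.7% of all promoters had one. Their GC content ran from 47% to 68.67% in the first promoter listed for each, against a median of 52.67% over all promoters. The core of the antioxidant response element (TGACNNNGC, either strand), the motif read by NRF2 and its partners, was in 2 members and in 12.4% of all promoters. Those windows are shown with the motif in capitals.
Sod1 window, chr16:90220686-90220734, plus strand: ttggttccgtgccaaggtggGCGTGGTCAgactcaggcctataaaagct
Prdx1 window, chr4:116685446-116685494, plus strand: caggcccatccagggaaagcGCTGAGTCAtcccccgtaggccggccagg
The motif began 56 bases before the Sod1 start and 133 bases before the Prdx1 start. A TATA box (TATAAA) was in the Sod1, Prdx1 and Prdx3 promoters and in 13.6% of all promoters. The core read by nuclear respiratory factor 1 (CGCNTGCG), a regulator of respiratory genes, was in a Gpx4 promoter and in 8.21% of all. The motif of the estrogen-related receptors (AAGGTCA), which act with the co-activator PGC-1α, was in no member promoter and in 4.72% of all. Matches to these letters are descriptions of the DNA and not binding data. Matches were counted on both strands, overlapping ones included.

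Which members differed between the neuron types was asked by setting each type against the other 3 averaged, over all 83 libraries (edgeR quasi-likelihood F-test, adjusted over 9604 genes, called under 0.05). In PV interneurons 2 of 10 members were higher, Sod2 and Prdx5, against 11% of all tested genes, and 0 were lower, against 11.6%. In VIP interneurons 1 member was lower, Sod2, against 5.5% of all genes, and 0 were higher, against 7.04%. In PYC no member was called higher (9.14% of all genes) or lower (7.46%), and in SST none was higher (4.47%) or lower (3.11%). At an unadjusted p under 0.05 the members numbered 0 in PYC (25.2% of all genes), 3 in PV (31.5%), 1 in SST (15.9%) and 2 in VIP (22.5%), so that their share was close to or below that of all genes. DESeq2 called the same counts in each type and direction. The median log2 fold change over the 10 members was 0.49 in PV, where all genes had -0.02, and -0.33 in VIP, where all genes had 0.03.

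Some markers of other cells also differed between these types. The astrocyte sum ran from 1349.9 to 3223 CPM in PV and from 2458 to 4127 CPM in VIP. Of 13 tested astrocyte genes 1 was higher and 3 lower in PV, and 2 were higher and 0 lower in VIP. Aqp4, the water channel of astrocytes, had no count in 3 of 20 PV and 1 of 21 VIP pools. It averaged 13.9 CPM in PV, 13.8 CPM in SST, 15.4 CPM in PYC and 17.8 CPM in VIP. Gja1 had counts in all pools and averaged 28.1 CPM in PV, 20.6 CPM in SST, 23.8 CPM in PYC and 36.6 CPM in VIP. None of 9 tested oligodendrocyte genes or 3 tested microglia genes was called in PV or VIP. Of 6 tested oligodendrocyte precursor genes 1 was higher and 1 lower in PV, and 1 was lower in VIP. Vessel markers summed to 99.4 ± 36.1 CPM (SD, n = 20) in PV and 173 ± 71.5 CPM (SD, n = 21) in VIP, with 0 of 5 tested genes called in either. Pyramidal markers, summed over 13 genes, were lowest in PV: they averaged 1919 ± 385 CPM (SD, n = 20) in PV, 2369.9 ± 406 CPM (SD, n = 21) in SST, 3564 ± 589 CPM (SD, n = 21) in VIP and 4609 ± 516 CPM (SD, n = 21) in PYC. Of 11 tested pyramidal genes 8 were lower and 0 higher in PV, and 1 was lower and 2 higher in VIP. Slc17a7, the vesicular glutamate transporter of pyramidal cells, averaged 257 CPM in PV, 348 CPM in SST, 471 CPM in VIP and 822 CPM in PYC. In 2 old VIP pools SST markers summed to 2381 and 2607 CPM, against 399.9 to 786 CPM in the other 19 VIP pools. Without those 2 pools, a setting chosen after seeing the data, Sod2 was 1.01 in PV and -0.88 in VIP and Prdx5 was 0.85 in PV, all still called. The part of these cells in the members' differences was not otherwise tested.

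**Figure D1:**
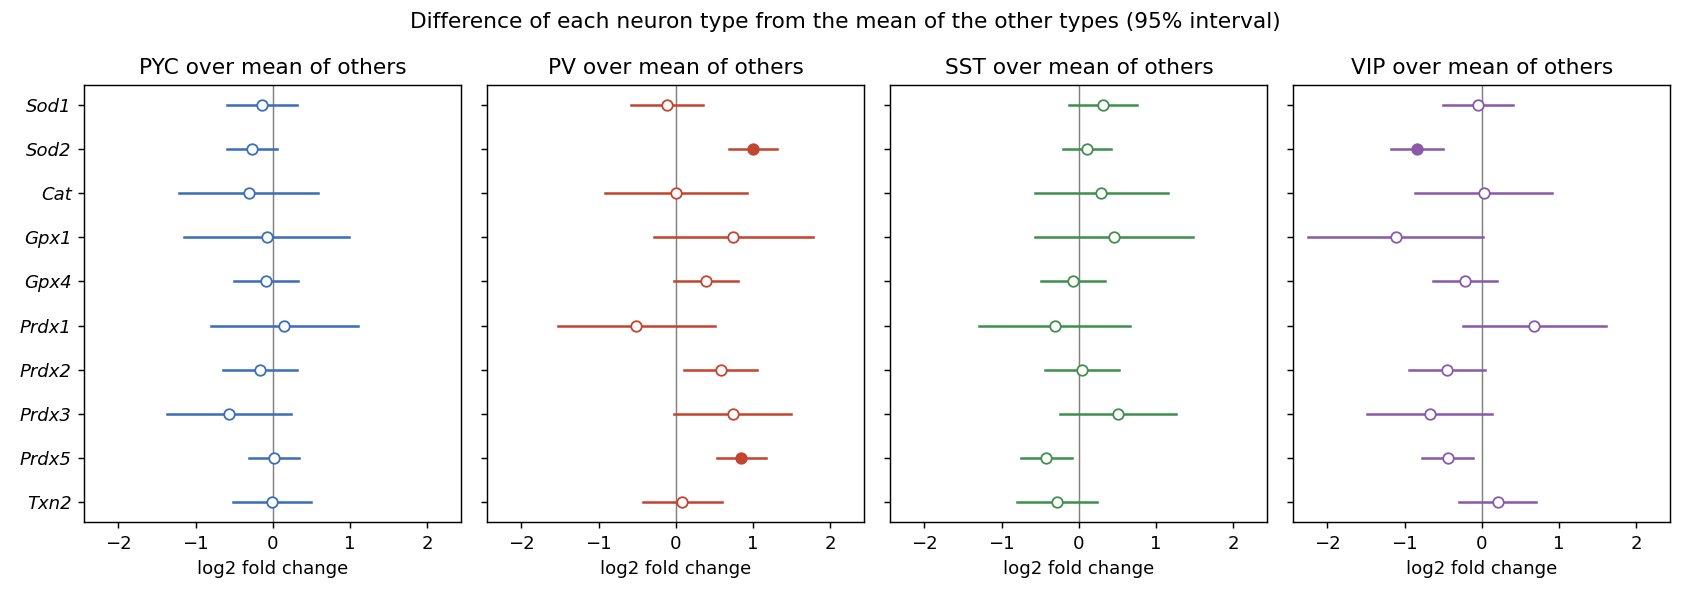
Log2 fold change of each member in one neuron type over the mean of the other types, with its 95% interval from the edgeR fit of 83 libraries; filled points passed an adjusted p of 0.05. Sod2 and Prdx5 are filled on the right in PV, and Sod2 is filled on the left in VIP.

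Sod2, the manganese superoxide dismutase of mitochondria (ENSMUSG00000006818, chr17:13006846-13040063, plus strand, GRCm38), was the member with the most counts. In PV pools it ran from 91.5 to 305 CPM with a median of 203 CPM, in SST pools from 39.2 to 265 CPM with a median of 131 CPM, in PYC pools from 19.2 to 167 CPM with a median of 111 CPM and in VIP pools from 3.03 to 172 CPM with a median of 79.1 CPM. PV and VIP pools separated widely: 14 of 20 PV pools lay above every VIP pool and 12 of 21 VIP pools lay below every PV pool. All 20 PV pools were above the VIP median, though the ranges overlapped. In PV it was higher than in the other types by 0.997 ± 0.16 (SE) on the log2 scale, a 2.00-fold difference (adjusted p = 1.12e-07). In VIP it was lower, at -0.84 ± 0.17 (SE) (adjusted p = 9.29e-05). The same direction was called in old and in young libraries taken alone, at 0.90 and 1.09 in PV and at -0.63 and -1.04 in VIP.

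Among the 6 pairs of types, Sod2 passed in 4. PV exceeded SST by 0.67 ± 0.20 (SE) (adjusted p = 0.0125) and VIP by 1.37 ± 0.20 (SE) (adjusted p = 2.74e-08), and PYC over PV was -0.95 ± 0.20 (SE) (adjusted p = 8.46e-05). SST exceeded VIP by 0.71 ± 0.20 (SE) (adjusted p = 0.0124). The order of levels was therefore PV, SST, PYC and VIP, in which the neighbours SST and PYC did not pass (-0.28 ± 0.20 (SE) for PYC over SST, 95% interval -0.67 to 0.11), nor did PYC and VIP (0.43 ± 0.20 (SE) for PYC over VIP, 95% interval 0.04 to 0.82). SST over VIP lost its call in old and in young libraries alone, and PV over SST in young ones. Across all genes, 12.7% were called in PV over SST, 21.8% in PV over VIP, 21.9% in PYC over PV, 6.87% in SST over VIP, 13.2% in PYC over SST and 11.7% in PYC over VIP.

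The longest match of Sod2 with Rps6ka2, a kinase gene, held 3110 bases, and the highest identity of any match between them was 98.26%. Rps6ka2 was itself higher in PV by 0.47 (adjusted p = 0.0171) and not called in VIP (0.28, adjusted p = 0.263). In all, 13 genes shared at least 200 bases at 90% identity with Sod2, and their whole counts came to 279.9% of those of Sod2. Of these, the noncoding gene AC166110.4 shared up to 3108 bases and added no counts. The others besides Rps6ka2 shared 210 bases or fewer. The labels do not say how reads matching Sod2 and another gene were counted. The part of these genes in the Sod2 values was not tested. The lowest Sod2 value, 3.03 CPM from 10 counts, was in a young VIP library with low mitochondrial counts. Without the 6 such libraries the PV difference was 0.94 and the VIP difference -0.80, both still called.

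Sod1, the copper-zinc enzyme of the cytosol (ENSMUSG00000022982, chr16:90220754-90226329, plus strand), showed no called difference between types. It averaged 49.7 ± 21.03 CPM (SD, n = 21) in SST, 40.4 ± 26.4 CPM (SD, n = 21) in VIP, 38.5 ± 17.4 CPM (SD, n = 21) in PYC and 37.6 ± 22.1 CPM (SD, n = 20) in PV. In PV over the other types it was -0.12 ± 0.23 (SE), with a 95% interval of -0.58 to 0.35 that lies below the whole Sod2 interval of 0.69 to 1.30. That the 2 dismutases differ from each other was not tested.

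**Figure D2:**
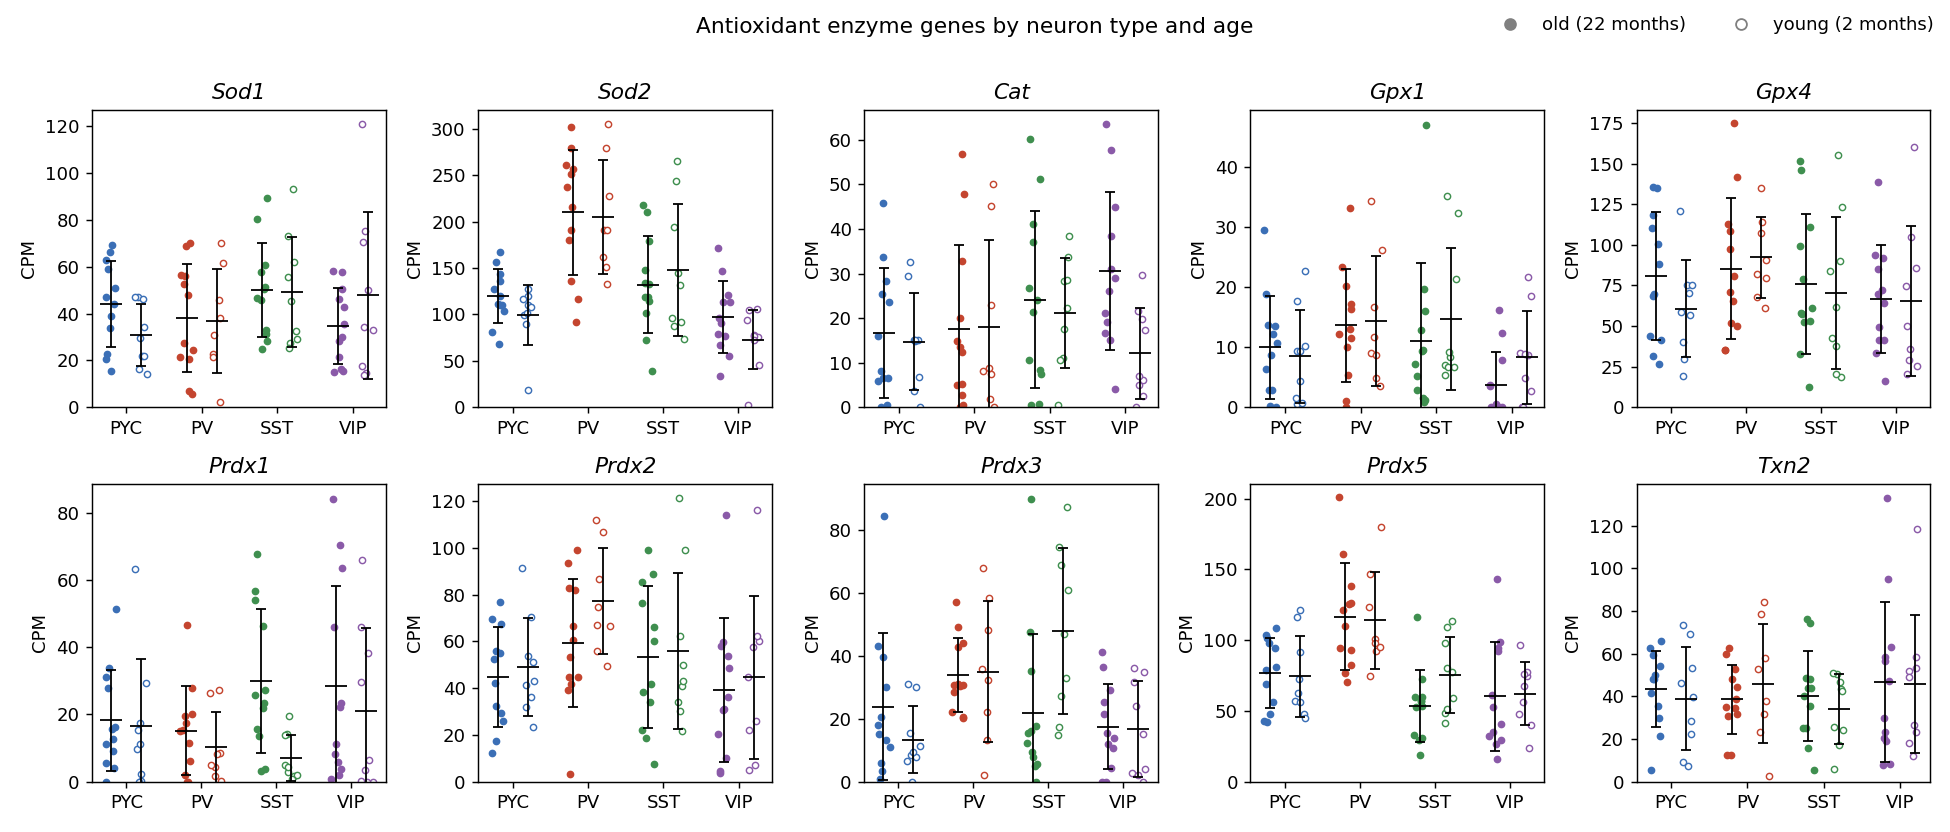
CPM of the 10 members in each of 83 libraries, old (filled) left of young (open) in each neuron type; the black dash is the mean and the bar is 1 SD, drawn down to 0 at most. Sod2 and Prdx5 are highest in PV at both ages, and old and young points overlap in all 40 pairs of groups. The overlap was counted for the members only.

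Prdx5, a peroxiredoxin found in mitochondria, peroxisomes and the cytosol (ENSMUSG00000024953, chr19:6906697-6910106, minus strand), was the other member higher in PV. It ran from 70.1 to 201 CPM with a median of 105 CPM in PV, from 42.04 to 121 CPM with a median of 72.5 CPM in PYC, from 18.5 to 116 CPM with a median of 57.2 CPM in SST and from 16.02 to 143 CPM with a median of 56.3 CPM in VIP. All 20 PV pools exceeded the SST and VIP medians, and 9 of 20 exceeded every PYC pool. In PV it was higher than in the other types by 0.85 ± 0.16 (SE), a 1.80-fold difference (adjusted p = 8.52e-06), and it passed in old (0.94) and in young (0.75) libraries alone. PV was above SST by 0.95 ± 0.20 (SE) (adjusted p = 0.000204) and above VIP by 0.97 ± 0.20 (SE) (adjusted p = 8.69e-05), and PYC over PV was -0.62 ± 0.20 (SE) (adjusted p = 0.0156). The order of levels was PV, PYC, SST and VIP, in which no pair among PYC, SST and VIP passed the test. PYC over PV lost its call in old and in young libraries alone, and PV over SST in young ones. Trmt112, a gene on the opposite strand that shares 409 exon bases with Prdx5, was not called in PV (0.18, adjusted p = 0.806) and over all libraries Prdx5 held 50104 counts, against 12144 for Trmt112.

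Prdx3 and Prdx2, the peroxiredoxins of the mitochondrial matrix and of the cytosol, were highest in PV without passing. Prdx3 (chr19:60864051-60874556, minus strand) averaged 34.4 ± 16.3 CPM (SD, n = 20) in PV, 32.99 ± 28.3 CPM (SD, n = 21) in SST, 19.4 ± 19.3 CPM (SD, n = 21) in PYC and 17.2 ± 13.9 CPM (SD, n = 21) in VIP. Its difference in PV was 0.73 ± 0.38 (SE) with an adjusted p of 0.175, and 5 libraries had no count of it. Prdx2 (chr8:84969587-84974834, plus strand) averaged 66.5 ± 26.5 CPM (SD, n = 20) in PV, 54.3 ± 30.9 CPM (SD, n = 21) in SST, 46.6 ± 20.7 CPM (SD, n = 21) in PYC and 41.5 ± 31.8 CPM (SD, n = 21) in VIP. In PV over the other types Prdx2 was 0.58 ± 0.24 (SE) (adjusted p = 0.0662), and it passed without the 6 low mitochondrial libraries (0.64, adjusted p = 0.0448). PV over VIP, at 0.78 ± 0.30 (SE) (adjusted p = 0.0492), was the 1 pair that passed, and it kept its call in 3 of 9 alternative settings. Prdx2 shares 177 exon bases with Rnaseh2a and 173 with Junb, both on the other strand.

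Prdx1, another cytosolic peroxiredoxin (chr4:116685544-116700822, plus strand), averaged 25.3 ± 27.3 CPM (SD, n = 21) in VIP, 20.2 ± 20.1 CPM (SD, n = 21) in SST, 17.5 ± 16.8 CPM (SD, n = 21) in PYC and 13.1 ± 12.2 CPM (SD, n = 20) in PV. The SD within a type was close to its mean, 6 libraries had no count, and its difference in PV was -0.51 ± 0.51 (SE). Pseudogenes nearly identical to Prdx1 held 9.116% as many counts as Prdx1 itself.

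The glutathione peroxidases use glutathione to reduce peroxides, GPX4 those of membrane lipids. Gpx4 (chr10:80047166-80056439, plus strand) averaged 88.1 ± 36.4 CPM (SD, n = 20) in PV, 73.7 ± 43.7 CPM (SD, n = 21) in SST, 72.2 ± 36.3 CPM (SD, n = 21) in PYC and 65.9 ± 38.2 CPM (SD, n = 21) in VIP, and its difference in PV was 0.39 ± 0.21 (SE) (adjusted p = 0.189). Gpx1 (chr9:108338903-108340343, plus strand) had no count in 10 libraries, 8 of them VIP. In VIP it averaged 5.67 ± 6.80 CPM (SD, n = 21), against 9.37 ± 8.07 CPM (SD, n = 21) in PYC, 13.96 ± 9.73 CPM (SD, n = 20) in PV and 12.7 ± 12.3 CPM (SD, n = 21) in SST, and its difference from the other types was -1.12 ± 0.57 (SE) (adjusted p = 0.231). Between the 10 members Gpx1 had the largest distance between type means, 2.32 on the log2 CPM scale, yet its standard errors of over 0.5 left no call.

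Cat, catalase of the peroxisome (chr2:103453849-103485160, minus strand), averaged 22.9 ± 16.7 CPM (SD, n = 21) in SST, 22.7 ± 17.4 CPM (SD, n = 21) in VIP, 17.8 ± 18.6 CPM (SD, n = 20) in PV and 15.9 ± 12.8 CPM (SD, n = 21) in PYC, with no call. Txn2, the mitochondrial thioredoxin (chr15:77915047-77929006, minus strand), showed no called difference between types. It averaged 46.4 ± 34.6 CPM (SD, n = 21) in VIP, 41.6 ± 21.2 CPM (SD, n = 20) in PV, 41.5 ± 20.3 CPM (SD, n = 21) in PYC and 37.5 ± 19.03 CPM (SD, n = 21) in SST, and its type means lay within 0.20 of each other on the log2 CPM scale. Its difference in PV was 0.09 ± 0.26 (SE), with a 95% interval of -0.43 to 0.60.

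Levels can be compared between genes only per length. Per kilobase of longest coding transcript, over all libraries, Gpx4 had 75.2, Sod1 64.9 and Prdx5 62.1 CPM, and Cat had the least at 7.60 CPM. Per kilobase of all merged exons the top members were Gpx4 at 43.4 and Prdx5 at 36.6 CPM, and Sod1 ranked 6 at 10.5 CPM, so the order depends on which exons are taken. Sod2, with the most counts, ranked 5 on both scales, and its merged exons hold 10008 bases.

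Most listed respiratory genes were higher in PV. Of 50 nuclear oxidative phosphorylation subunits 48 were tested, and 40 were higher in PV and 0 lower, against 11% and 11.6% of all genes. In VIP, 20 were lower and 0 higher, against 5.5% and 7.04% of all genes. The mean that VIP was set against includes PV, and this list was not counted in single pairs of types. Ndufv2, a complex I subunit, was 1.09 ± 0.14 (SE, adjusted p = 6.54e-10) in PV, and Atp5b, a subunit of ATP synthase, was 0.78 ± 0.08 (SE, adjusted p = 3.59e-15). Among the 13 protein genes of mitochondrial DNA, 10 were higher in PV. The 6 libraries with low mitochondrial counts were all of the other types, and this list was not tested without them. Its summed CPM had a median of 14802 in PV, 11846 in SST, 11589 in PYC and 10724 in VIP. Summed CPM of the nuclear list averaged 6002 ± 816 CPM (SD, n = 20) in PV, 4032 ± 609 CPM (SD, n = 21) in SST, 3670.5 ± 532 CPM (SD, n = 21) in PYC and 3297 ± 471 CPM (SD, n = 21) in VIP.

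Set against that sum, the Sod2 difference between types was smaller. Sod2 had 34.8 ± 10.7 (SD, n = 20) CPM per 1000 CPM of the nuclear list in PV, 34.9 ± 15.5 (SD, n = 21) in SST, 30.3 ± 8.97 (SD, n = 21) in PYC and 26.8 ± 12.8 (SD, n = 21) in VIP. Prdx5 had 21.3 ± 8.96 (SD, n = 21) in PYC, 19.2 ± 5.07 (SD, n = 20) in PV, 18.7 ± 9.80 (SD, n = 21) in VIP and 15.8 ± 6.74 (SD, n = 21) in SST. These ratios are descriptions without a test. In pools of this kind, RNA of the stained cells and RNA of neighbouring cells cut with them cannot be told apart.

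**Figure D3:**
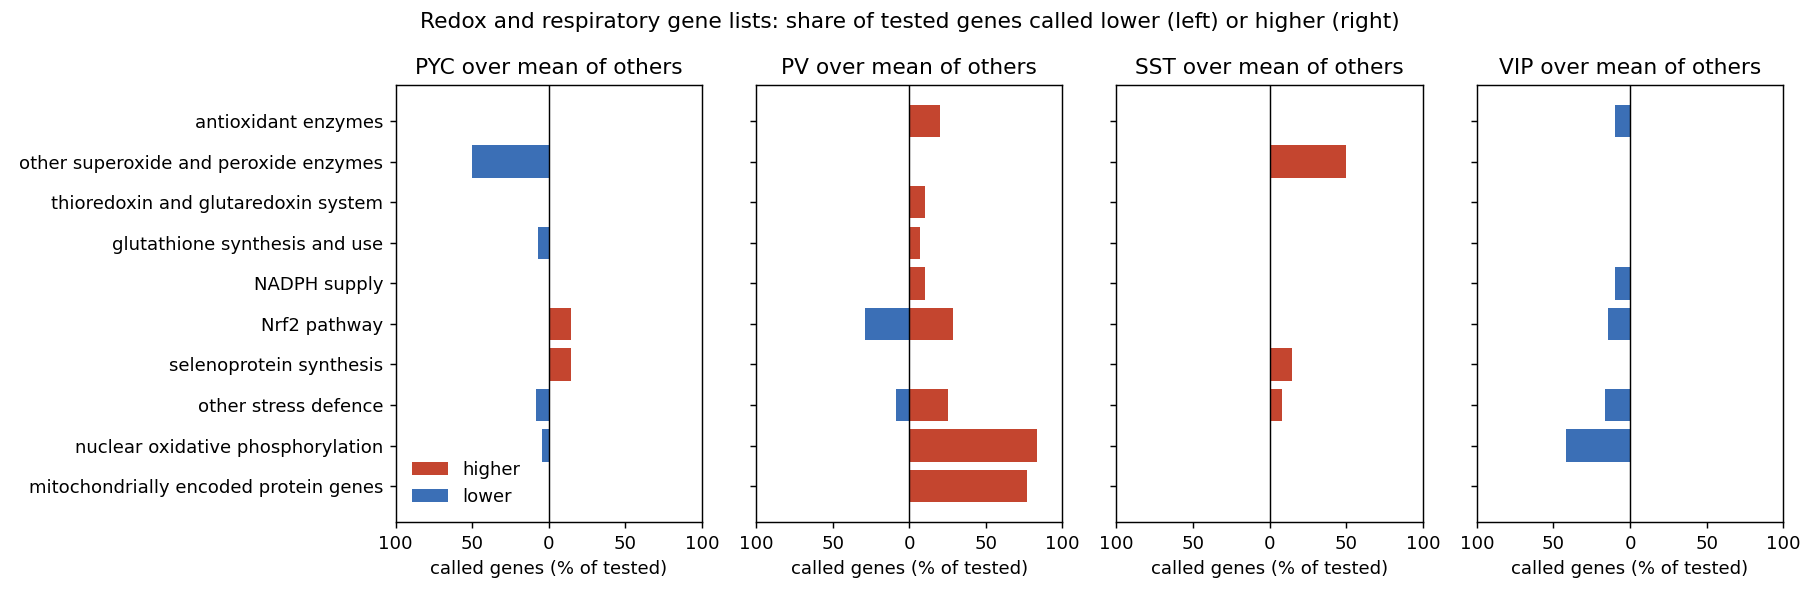
Share of the tested genes of each redox or respiratory list called higher (right) or lower (left) in one neuron type over the mean of the others, in percent. Nuclear and mitochondrially encoded respiratory genes reach far to the right in PV, and nuclear ones to the left in VIP. The libraries with low mitochondrial counts, none of them PV, are included.

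In PV 22.6% of all tested genes were called in either direction, and in the other redox lists the called genes ran from 0 of 7 to 4 of 7. In the thioredoxin and glutaredoxin system 1 of 10 tested genes was higher in PV, Srxn1 (0.53 ± 0.17 (SE, adjusted p = 0.0162)), which repairs overoxidised peroxiredoxins. In glutathione synthesis and use 1 of 14 was, Gss (0.96 ± 0.34 (SE, adjusted p = 0.0321)), glutathione synthetase, which was lower in PYC (-1.04 ± 0.38 (SE, adjusted p = 0.0439)). Me3, a mitochondrial malic enzyme that yields NADPH, was the 1 of 10 NADPH genes higher in PV (1.005 ± 0.17 (SE, adjusted p = 1.77e-06)) and was lower in VIP (-0.87 ± 0.19 (SE, adjusted p = 0.000379)). Of 7 tested genes of the Nrf2 pathway, 2 were higher in PV, the repressor Bach1 (1.94 ± 0.43 (SE, adjusted p = 0.000180)) and Nfe2l1 (0.42 ± 0.09 (SE, adjusted p = 0.000160)), and 2 were lower, Sqstm1 (-0.43 ± 0.11 (SE, adjusted p = 0.00178)) and the ferritin gene Fth1 (-0.28 ± 0.10 (SE, adjusted p = 0.0301)).

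Among 12 tested genes of other stress defence, 3 were higher in PV and 1, Sesn1, was lower (-1.24 ± 0.42 (SE, adjusted p = 0.0212)). Ppargc1a, which encodes PGC-1α, a co-activator of mitochondrial genes, was 1.75 ± 0.15 (SE, adjusted p = 2.71e-18) in PV, -0.57 ± 0.17 (SE, adjusted p = 0.0113) in VIP and -1.23 ± 0.17 (SE, adjusted p = 6.80e-09) in PYC. The others higher in PV were Oxr1 (0.43 ± 0.10 (SE, adjusted p = 0.000181)) and Park7 (0.61 ± 0.23 (SE, adjusted p = 0.0446)). Of 2 tested genes among the other superoxide and peroxide enzymes, the plasma glutathione peroxidase Gpx3 was higher in SST (3.20 ± 0.60 (SE, adjusted p = 3.22e-05)) and lower in PYC (-2.13 ± 0.76 (SE, adjusted p = 0.0399)). None of the 7 tested genes listed under selenoprotein synthesis, not all of which are synthesis factors, was called in PV or VIP. In that list Secisbp2l was higher in PYC (0.54 ± 0.14 (SE, adjusted p = 0.00225)) and Lrp8 in SST (0.45 ± 0.12 (SE, adjusted p = 0.00417)).

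The study's other comparison, old against young within each type, gave no called member. edgeR's quasi-likelihood test called 0% of the 12508 genes tested in PYC, 0% of 12564 in PV, 0% of 12805 in SST and 0% of 12337 in VIP, members included. Without adjustment, 361 genes in PYC, 288 in PV, 368 in SST and 368 in VIP had p under 0.05, with 2 members in SST and none in the others, and DESeq2 called 0 genes in PYC, 2 in PV, 1 in SST and 0 in VIP, no member among them. Old and young pools overlapped for every member in every type. How often they did so over all genes was not counted. Of the 40 differences 34 were under 0.5 in size on the log2 scale, 24 were positive and 16 negative, and the median was 0.03. Sizes were not counted in this way over all genes. In PYC 9 of 10 members were positive (median 0.19), where 50.2% of all genes were, against 4 in PV (median -0.06), 5 in SST (median -0.02) and 6 in VIP (median 0.02). Of all genes 51.9% were positive in PV, 49.3% in SST and 51.8% in VIP. The lowest adjusted p of any was 0.9996.

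The intervals bound what the pools could show. For Sod2 in PV, old over young was 0.01 ± 0.20 (SE) with a 95% interval of -0.39 to 0.41, and for Prdx5 in PV it was 0.02 ± 0.21 (SE) with -0.41 to 0.45. Gpx1 in VIP was the least certain, at -1.18 ± 1.34 (SE) with -3.87 to 1.51, and with the F number of the sample titles, which the labels do not explain, as a factor it was -3.28 ± 2.44 (SE). In old PV pools Sod2 averaged 209.8 ± 67.2 CPM (SD, n = 12), against 205 ± 61.5 CPM (SD, n = 8) in young PV pools. In old VIP pools it averaged 96.9 ± 38.8 CPM (SD, n = 12), against 72.9 ± 32.1 CPM (SD, n = 9) in young VIP pools. For Prdx5 the mean was 117 ± 37.9 CPM (SD, n = 12) in old PV pools, against 114 ± 34.5 CPM (SD, n = 8) in young PV pools.

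**Figure D4:**
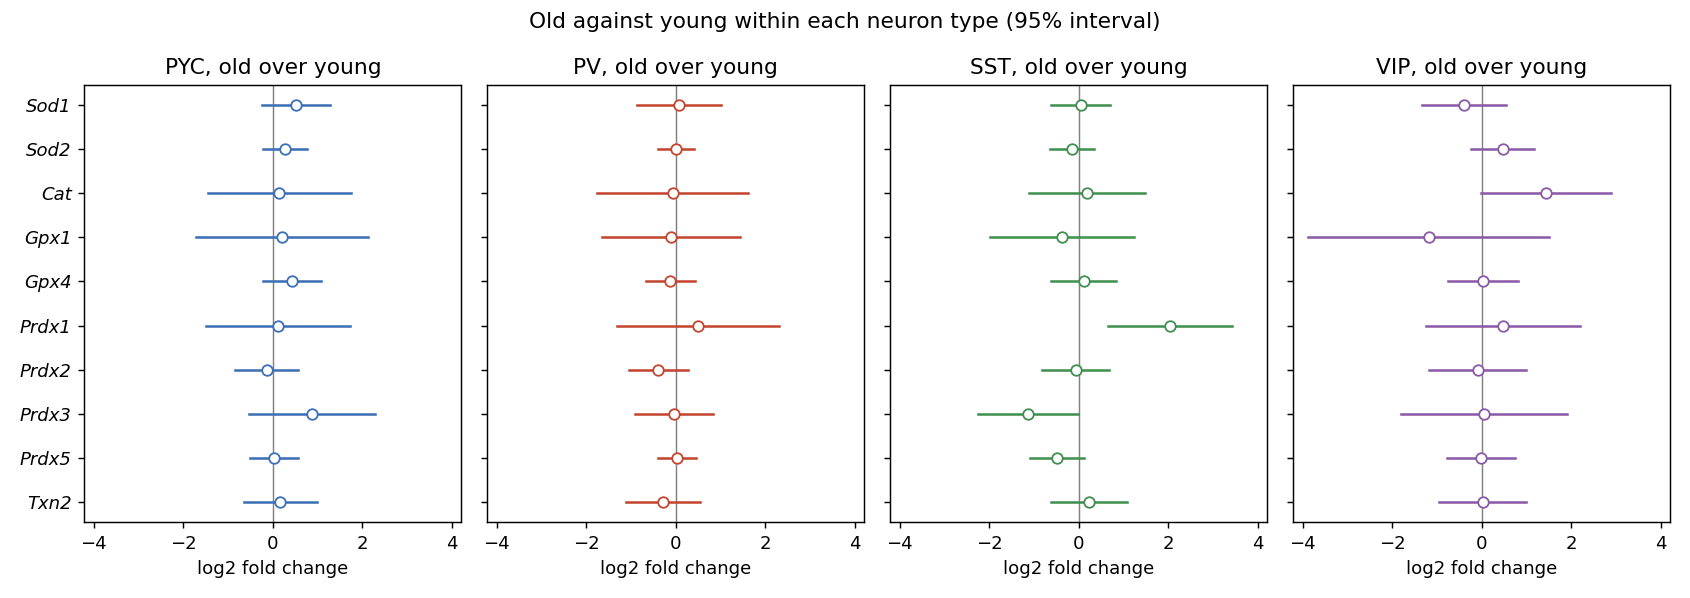
Log2 fold change of each member, old over young, with its 95% interval from the edgeR fit within each neuron type; open points did not pass an adjusted p of 0.05. No point is filled, and the intervals of Prdx1 and Prdx3 in SST are the only ones that leave out 0.

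Prdx1 in SST had the largest age difference of the 40. It ran from 3.21 to 67.8 CPM with a median of 24.5 CPM in the 12 old SST pools, against from 0.808 to 19.6 CPM with a median of 4.27 CPM in the 9 young ones. Of the old pools 8 lay above every young pool, and the groups overlapped in the others. Old over young was 2.04 ± 0.69 (SE) (unadjusted p = 0.00475, adjusted p = 0.9999 by edgeR), and stayed between 1.87 and 2.44 when each library was left out in turn. In the other types its difference was 0.12 ± 0.80 (SE) in PYC, 0.50 ± 0.90 (SE) in PV and 0.47 ± 0.86 (SE) in VIP. With the F number as a factor it was 1.52 ± 1.21 (SE) in PV, 1.59 ± 1.43 (SE) in VIP and 1.86 ± 0.84 (SE) in SST, none called. Whether the age difference depends on the type gave an unadjusted p of 0.392 in the interaction test.

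Prdx3 in SST went the other way in value. It ran from 0 to 89.96 CPM with a median of 13.8 CPM in old SST pools, against from 14.9 to 87.5 CPM with a median of 46.9 CPM in young ones, and 6 of 12 old pools lay below every young pool. Old over young was -1.13 ± 0.55 (SE) (unadjusted p = 0.0467, adjusted p = 0.9999). Cat in VIP ran from 4.14 to 63.5 CPM with a median of 27.7 CPM in old pools, against from 0 to 29.7 CPM with a median of 7.09 CPM in young ones, and 11 of 12 old pools exceeded the young median. Its old over young difference was 1.43 ± 0.72 (SE) (unadjusted p = 0.0532, adjusted p = 0.9996). None of these 3 passed adjustment over all genes, although Prdx1 in SST did in a fit with no filter on low counts (adjusted p = 0.0282), which called 5734 of 31077 genes. For Cat in VIP, the 2 pools rich in SST markers were both old. Low mitochondrial counts were in 1 old and 2 young VIP pools. With either set left out, no member had an unadjusted p under 0.05 for age in VIP by edgeR. Cat did with DESeq2 and with the library total as a covariate.

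Averaged over the 4 types, edgeR called no member with age, and 0% of 9604 genes in all, with 429 genes and no member at an unadjusted p under 0.05, while DESeq2 called 8 genes and no member. The largest mean difference was Prdx1, at 0.78 ± 0.43 (SE) (unadjusted p = 0.0733). Pools of different types that came from the same mouse were treated as independent in these tests. The test of age by type called 1 gene, 0.0104% of 9604, which was not a member. Among the members the smallest p in that test was 0.227, for Prdx3, and 258 genes were under an unadjusted p of 0.05.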

How the data were processed

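RNA-seq libraries came from laser-captured pools, prepared with a SMARTer stranded kit, per the labels' protocols. The deposited table holds raw counts per Ensembl gene, not normalized by the authors. The submitters' processing notes name HISAT2 and GRCm38. The sources used here do not give the counting tool, its annotation or its strand setting. Overlapping genes and near copies are therefore uncertain. Gene coordinates and lengths are from GENCODE release M21. Near copies share at least 200 bases at 90% identity.

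Age was tested within each type, and types against each other in a fit of all 8 groups, by edgeR 4.0.16 in R 4.3.3 (quasi-likelihood F-test, robust, TMM factors, filterByExpr with a minimum count of 10, 2-sided, Benjamini-Hochberg adjustment over all tested genes at 0.05). The fit of all groups kept genes at or above the median abundance. Below it, an earlier analysis of these data made false calls on simulated counts. Standard errors come from the F statistic. DESeq2 1.42.0 was an alternative, with other size factors, filters, covariates (library total, the unexplained F number in sample titles) and left-out libraries, of which leaving out 2 VIP pools rich in SST markers (summed over 1000 CPM) was chosen after seeing the data. Log2 CPM uses a prior count of 2. The tests were tried on simulated counts. No molecular identifiers are given. No libraries held identical values.

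Members and lists were chosen with earlier results of these data known. All members are named, with up to 4 genes per other list, those of smallest unadjusted p in the comparison. Rps6ka2, Trmt112, Rnaseh2a and Junb were added for shared sequence after the data were seen.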

Additional observations from a re-analysis of the deposited data

Results flagged for a closer look

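In 3 of the 40 tests of a member in a group of 8 or 9 young libraries, 1 library stood apart from the others by Dixon's test at the 95% level, and chance gives about 1 in 20. Sod2 had 19.2 CPM in replicate 2 of young PYC, the lowest of its group, and that library had 0.215% mitochondrial counts. Prdx1 had 63.4 CPM in replicate 5 of young PYC, the highest of its group. Txn2 had 119 CPM in replicate 2 of young VIP, the highest of its group.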

How the results depend on the processing

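The 3 calls against the mean of the other types held in all 9 alternatives: Sod2 in PV at 0.90 to 1.09, Prdx5 in PV at 0.75 to 0.94 and Sod2 in VIP at -1.04 to -0.63. With the F number as a factor 2 members were lower in VIP, Prdx5 (-0.55) being added. That setting called 1039 of 9604 genes in VIP in either direction. In pairs of types, old libraries alone gave 1 called member for PYC over PV and 0 for SST over VIP. Of 9604 genes those fits called 1411 and 273. Young libraries alone gave 1 called member for PYC over PV, 0 for PV over SST and 0 for SST over VIP. Of 9604 genes those fits called 1038, 429 and 186. All these fits have fewer libraries. Prdx2 in PV over VIP ran from 0.63 to 0.98 and was lost under RLE size factors, the library total, the F number, old or young libraries alone, and without the 2 VIP pools rich in SST markers.

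No alternative within a type called a member with age, except that fitting SST with no filter on low counts called 1, Prdx1 (2.03, adjusted p = 0.0282, while in the other settings its adjusted p was at least 0.302). That fit called 5734 of 31077 genes, and the cause was not tested. Over all genes, keeping every gene of filterByExpr gave 378 of 19208 for the mean age effect and 600 for age by type. No member was among them. That setting brings back genes under the median abundance, among which an earlier analysis of these data made false calls on simulated counts. Whether these calls are of that kind was not tested. Of 280 age differences under other settings 37 changed sign, none of them called, with sizes of at most 0.203 as reported and 0.484 after the change, and of 830 with 1 library left out 120 did. Genes such as Gpx1, Cat, Prdx1 and Prdx3, with medians of 54 to 123 counts per library, had the widest intervals. No paired analysis was possible because the replicate numbers only follow the order of the samples and the labels tie no library to a mouse.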

Other observations

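By the likeness of log2 CPM over the 83 libraries, the genes nearest to Gpx1 among 9603 others were Rnf11 (Pearson's r = 0.51), Opcml (0.50), Zbtb34 (0.48), Tpst2 (0.44) and Apbb2 (0.44). Those nearest to Prdx3 were Nol12 (0.49), Eml2 (0.48), Sec22b (0.46), Ubxn8 (0.45) and Ndrg4 (0.44). These are descriptions with no test, over libraries that share type and depth, and both members have many low counts. Both were chosen as the members with the widest distance between type means.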
